A study of Homo sapiens with 8 samples.

Results

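The regions described here are stretches of the HL-60 genome that carried acetylation of histone H3 at lysine 27 (H3K27ac) in both control libraries and in neither library of cells treated with all-trans retinoic acid (ATRA). They were selected on the H3K27ac peaks themselves. The peaks of the 4 H3K27ac libraries were merged into 53141 regions on chromosomes 1 to 22 and X, and a region was called lost when at least 1 bp of it lay under a peak in both control libraries and no base of it lay under a peak in either ATRA library. This rule gave 614 lost regions, 1.16% of all merged regions and 5.41% of the 11344 regions found in both control libraries. These shares follow from the rule and are a description. Regions found in all 4 libraries are called kept (9943 regions), and the mirror class, found in both ATRA libraries and neither control library, is called gained (4288 regions, 24.0% of the 17863 regions of both ATRA libraries).

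All libraries come from HL-60, an established cell line that the labels give as derived from acute promyelocytic leukemia. The cells were treated with 1 µM ATRA for 4 days or with the same volume of ethanol, its solvent, as the control. H3K27ac and trimethylation of histone H3 at lysine 4 (H3K4me3) were each measured by ChIP-seq in 2 ATRA and 2 control libraries, and the labels do not say whether the replicates were separate cultures. Peaks were called by the authors for each library separately on the human genome build hg19. Read counts were not used here, so the depth is unknown, and a region without a called peak may still carry signal below the calling threshold. In bulk chromatin, fewer cells with the mark and less of the mark per cell cannot be told apart.

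H3K27ac marks active enhancers and active promoters, whereas H3K4me3 is concentrated at promoters. Acetylation is set by histone acetyltransferases such as p300 that are brought in by bound transcription factors, and it is removed by deacetylases, so it can change at an enhancer within hours. In the myeloid lineage, GATA2 and ZBTB16 (PLZF) are expressed in progenitors, PU.1 and C/EBP factors drive granulocytic and monocytic genes, and ATRA acts through nuclear receptors that bind DNA. HL-60 cells respond to ATRA by maturing towards granulocytes.

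The H3K27ac libraries differed in their number of peaks, with 15457 and 29616 in control replicates 1 and 2 and 28200 and 39332 in ATRA replicates 1 and 2. The ATRA libraries were thus not poorer in peaks than control replicate 1, which set the limit on the regions of both control libraries. The number of lost regions depends on each library: it would be 8584 without control replicate 1, 1733 without control replicate 2, 890 without ATRA replicate 1 and 1190 without ATRA replicate 2. It also depends on the peaks, since 21 regions were lost when control peaks needed a −log10 q of at least 5, and 284 when at least 50% of the region had to lie under a peak in each control library. Promoters made up 14.4% without control replicate 1 and between 22.0% and 29.7% without each of the other 3. As a check of the cell type, 7 of 10 myeloid marker genes had H3K4me3 within 2000 bp of a transcription start site (TSS) in all 4 libraries, with ELANE and LYZ at 0 in each library. Of 10 markers of other lineages, 1 had it in all 4 libraries (GATA1) and 3 in any.

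The sequences of 7 stretches inside lost regions are printed because the results below turn on these loci. The first 6 are the 150-base windows of their regions, outside UTRs, that held the most matches to 7 short motifs. The motifs for paired retinoic acid receptor sites and for CTCF were among the 7 but have no match in the printed stretches. The last is the 200 bases before the 5′ end of IGLL1, whose promoter lay in a lost region. All are from the GRCh37 reference, 5′ to 3′ on the plus strand unless stated, and none overlaps an annotated UTR. Capitals mark matches on either strand to AGATAA, the letters used here for GATA factors, to GAGGAAGT, used for PU.1 and other ETS factors, to TGTGGT, used for RUNX factors, to TTGCNNAA, used for C/EBP factors, or to TGANTCA, used for AP-1.
GATA2 upstream (chr3:128240422-128240571): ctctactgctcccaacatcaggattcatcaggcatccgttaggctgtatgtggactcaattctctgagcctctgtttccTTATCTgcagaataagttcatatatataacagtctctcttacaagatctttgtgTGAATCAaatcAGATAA
ZBTB16 (chr11:114051700-114051849): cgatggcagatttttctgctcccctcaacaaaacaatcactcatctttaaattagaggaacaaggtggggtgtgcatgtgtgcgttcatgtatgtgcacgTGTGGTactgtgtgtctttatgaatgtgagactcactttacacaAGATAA
P2RX3 (chr11:57119110-57119259): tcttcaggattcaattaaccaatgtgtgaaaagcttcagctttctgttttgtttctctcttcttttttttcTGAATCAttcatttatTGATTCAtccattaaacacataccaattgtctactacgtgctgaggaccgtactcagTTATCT
EPX upstream (chr17:56268562-56268711): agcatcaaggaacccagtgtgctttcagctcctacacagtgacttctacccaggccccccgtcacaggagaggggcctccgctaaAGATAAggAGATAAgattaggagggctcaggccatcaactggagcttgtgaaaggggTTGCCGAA
IL5RA (chr3:3122972-3123121): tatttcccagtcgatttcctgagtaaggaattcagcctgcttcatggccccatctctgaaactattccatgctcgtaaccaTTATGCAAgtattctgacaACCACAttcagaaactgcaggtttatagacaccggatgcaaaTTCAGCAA
C1QA upstream (chr1:22942479-22942628): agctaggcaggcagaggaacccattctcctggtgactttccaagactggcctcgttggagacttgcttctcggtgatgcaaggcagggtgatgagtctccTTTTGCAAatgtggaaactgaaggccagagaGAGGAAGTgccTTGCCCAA
IGLL1 (chr22:23922490-23922689, minus strand): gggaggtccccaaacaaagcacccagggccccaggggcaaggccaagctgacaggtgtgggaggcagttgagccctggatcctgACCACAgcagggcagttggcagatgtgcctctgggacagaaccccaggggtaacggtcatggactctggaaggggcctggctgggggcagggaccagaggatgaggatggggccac
The EPX window holds a pair of GATA matches next to each other, and the GATA2 window a pair further apart. As these windows were chosen for their matches, the letters are a description and not evidence of binding.

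Lost regions were mostly outside promoters, as were gained regions and all merged regions. A region was called promoter when it came within 2000 bp of the start of any transcript of a protein-coding gene, gene body when it otherwise overlapped a protein-coding gene, and intergenic when it did neither. Of the 614 lost regions, 141 (23.0%) were at promoters, 245 (39.9%) in gene bodies and 228 (37.1%) intergenic, and 75 of the intergenic regions overlapped a long noncoding RNA gene. Kept regions had 70.5% at promoters, 13.4% in gene bodies and 16.1% intergenic. Gained regions, with 25.0%, 38.4% and 36.6%, were distributed nearly as the lost regions were. All merged regions had 29.9%, 34.5% and 35.6%. Among the regions of both control libraries, 1.89% of those at promoters were lost, 13.5% of those in gene bodies and 10.9% of the intergenic regions. By chromosome, this share ran from 2.32% on chromosome 19 to 7.98% on chromosome 3.

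**Figure D1:**
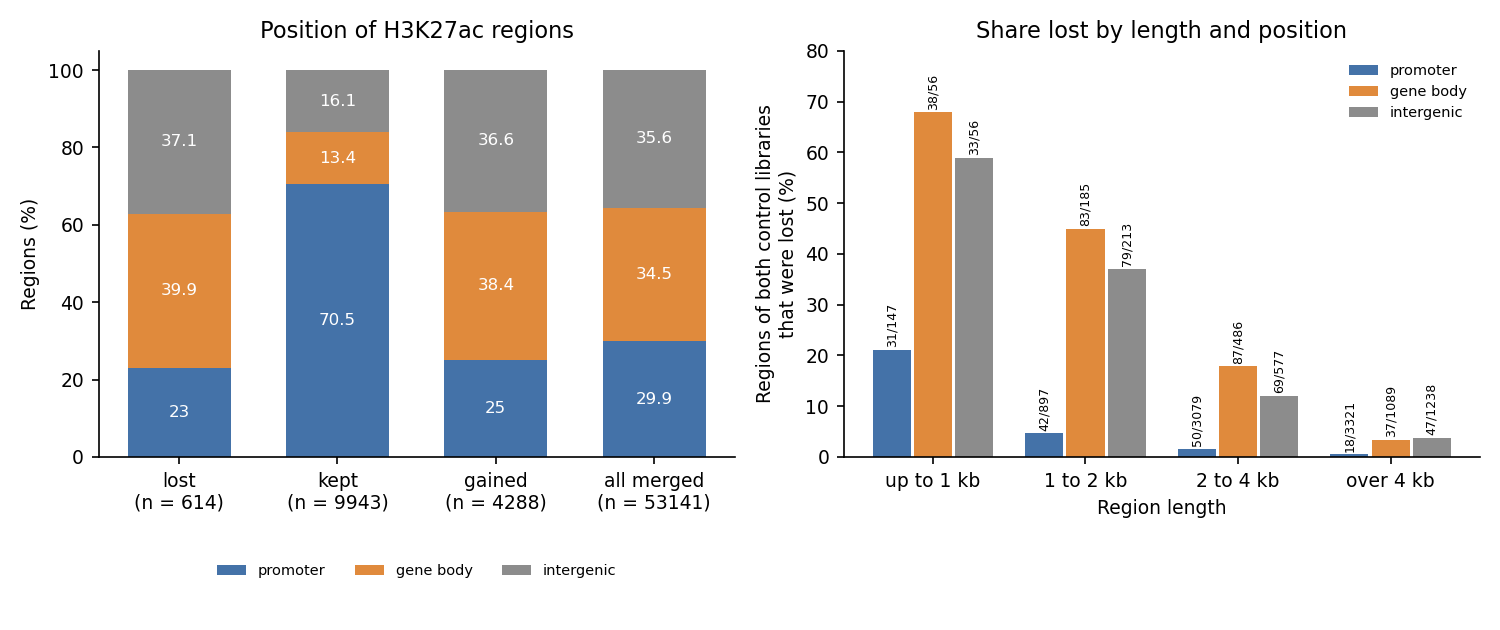
Left, the percent of lost, kept, gained and all merged H3K27ac regions at promoters, in gene bodies and between genes. Right, the percent of the regions of both control libraries that were lost, by region length and position, with the number lost and the number in the class on each bar. Short regions outside promoters were lost most often, up to 67.9% (38 of 56) of the gene-body regions of up to 1 kb. Lengths are those of merged regions, so ATRA peaks can lengthen only regions that were not lost.

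Lost regions were shorter than kept regions, though not than merged regions in general. Their median length was 2005 bp (range 262 to 10710 bp). It was 4275 bp for kept, 2141.5 bp for gained and 1038 bp for all merged regions. A region that also has ATRA peaks can only be longer after merging. Of the regions of both control libraries, 39.4% of those up to 1 kb were lost, 15.8% of those of 1 to 2 kb, 4.97% of those of 2 to 4 kb and 1.81% of those over 4 kb. These shares carry the same limit, since the lengths include ATRA peaks and only regions that were not lost can be lengthened by them. Promoter regions were lost less often than gene-body and intergenic regions in each of these classes of merged length. Over 4 kb, for example, 18 of 3321 promoter regions (0.542%), 37 of 1089 gene-body regions (3.40%) and 47 of 1238 intergenic regions (3.80%) were lost. The strongest control peak in a lost region had a median −log10 q of 2.01 and 1.51 in control replicates 1 and 2, and that in a kept region 2.20 and 1.80.

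The center of a lost region lay at a median distance of 14550.5 bp from the nearest protein-coding TSS, against 774 bp for kept, 11715 bp for gained and 10007 bp for all merged regions. The value for lost regions depends on the starts used, with 41192 bp to the 5′ end of a gene and 7040 bp when all annotated genes count. The distance was over 50 kb for 145 lost regions (23.6%). Even the promoter group was often not at the 5′ end of a gene. Of the 141 lost promoter regions, 61 (43.3%) came within 2000 bp of the outermost 5′ end of a gene and the other 80 only of an internal or alternative start. The corresponding share was 81.6% for kept (5724 of 7013) and 45.8% for gained promoter regions. A TSS lay inside 64 of the 141.

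**Figure D2:**
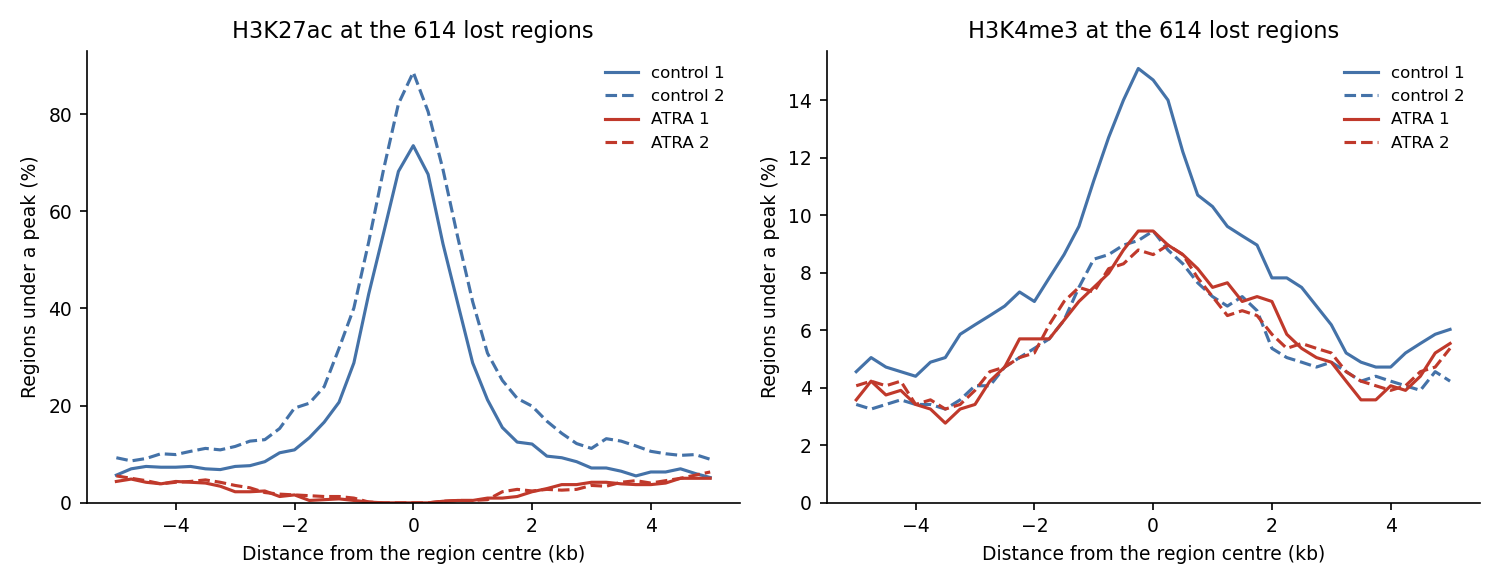
Percent of the 614 lost regions that were under a peak at each distance from the region center in kb, for H3K27ac (left) and H3K4me3 (right), by library (control blue, ATRA red, replicate 1 solid, replicate 2 dashed). The H3K27ac curves at the center follow from the rule, with 73.5% and 88.6% in the control and 0 in the ATRA libraries. For H3K4me3, control replicate 1 reached 14.7% at the center, and control replicate 2 (9.45%) lay with the ATRA libraries (9.45% and 8.63%).

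Most lost regions had no lost neighbor, which is also what a share of 5.41% over all regions of both control libraries leads to. Of the 614 lost regions, 474 had another region of both control libraries within 100 kb, and in 344 of these none of those neighbors was lost (72.6%). Every neighbor was lost in 23. For kept regions the corresponding share without a lost neighbor was 88.3% (7141 of 8090). Of all neighbors, counted once for each region they adjoin, 11.5% of those of lost regions were themselves lost (168 of 1466), against 4.58% of those of kept regions (1100 of 24008). The median gap from a lost region to the nearest H3K27ac peak of an ATRA library was 13065 bp. For 59 regions (9.61%) it was at most 1 kb, and for 130 (21.2%) no ATRA peak lay within 50 kb. A gained region lay within 50 kb of 89 lost regions (14.5%), compared with 31.6% of kept regions. Kept regions were longer and nearer to a TSS, and these shares were not adjusted for either. At the edge of the rule, the regions nearest to an ATRA peak without overlap were close to SNX13 (4 bp), DLL4 (15 bp), FLRT1 (36 bp) and OLIG1 (47 bp).

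The longest lost regions by mean control peak length lay both at distal sites and at promoters, and their lengths in each library are given in the plot of the 12 longest regions. The longest overlapped TRBC2, a constant segment of the T cell receptor beta locus that is nearly identical to TRBC1 (chr7:142498718-142508795, 10029 and 7303 bp under a peak in control replicates 1 and 2). The next was intergenic, 47595 bp from a TSS of IRF2BP2, a transcriptional corepressor (chr1:234690891-234701600, 6504 and 10710 bp). Neither had H3K4me3 in any library. The third covered the promoter of IGLL1, which encodes the lambda5 part of the surrogate light chain of pre-B cells (chr22:23919117-23929159, 7763 and 8818 bp). Another lost region of the IGLL1 locus followed directly (chr22:23929686-23932242, 2505 and 842 bp), so that both regions of both control libraries assigned to this gene were lost. H3K4me3 over the IGLL1 promoter region measured 4502 and 4465 bp in the control and 0 and 970 bp in the ATRA libraries. The ATRA values of this second mark were both below the control values, but the share of all regions with such an order was not counted.

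**Figure D3:**
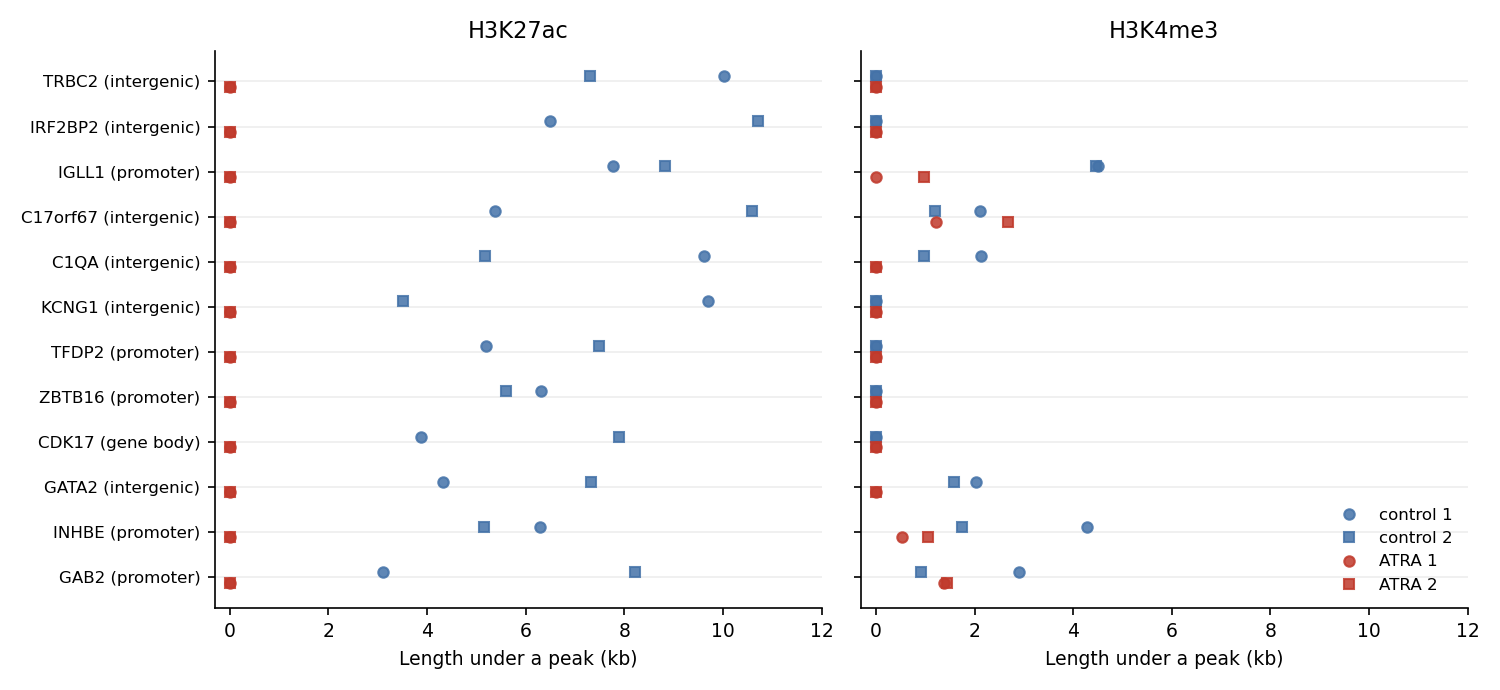
Length under a peak in kb for H3K27ac (left) and H3K4me3 (right) in each library, for the 12 lost regions with the largest mean control H3K27ac length, named by the gene overlapped or nearest and by position relative to protein-coding genes. H3K27ac is 0 in the ATRA libraries by the rule; H3K4me3 is absent from all libraries in 6 of the 12, and falls to 0 in both ATRA libraries at C1QA and GATA2.

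The intergenic region near C17orf67 (chr17:54850058-54860641, 5385 and 10584 bp) kept its H3K4me3, with 2109 and 1202 bp in the control and 1210 and 2686 bp in the ATRA libraries. The region 17506 bp upstream of C1QA, which encodes a chain of complement C1q made by macrophages, measured 9618 and 5180 bp (chr1:22939256-22948873). Its H3K4me3 went from 2135 and 970 bp to 0 and 0 bp, and the nearest ATRA H3K27ac peak lay 80671 bp away. The regions near KCNG1 (a potassium channel subunit) and in TFDP2 (a dimerization partner of E2F factors), CDK17 (a kinase) and ZBTB16 had no H3K4me3 in any library. Among the promoter regions, INHBE kept part of its H3K4me3 (4271 and 1747 bp against 530 and 1056 bp).

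At GATA2, a zinc finger factor of hematopoietic stem and progenitor cells, the only region that met the rule was intergenic, 28820 bp upstream of the nearest TSS (chr3:128237204-128244525). It was under a peak over 4324 and 7322 bp in control replicates 1 and 2. H3K4me3 there covered 2034 and 1590 bp in the control libraries and 0 bp in both ATRA libraries. The GATA2 promoter itself fell just outside the rule, because ATRA replicate 2 kept a short peak. That region (chr3:128207105-128214704) had 7577 and 6858 bp of H3K27ac in the control and 0 and 690 bp in the ATRA libraries. Its H3K4me3 was shorter but present, with 7600 and 7530 bp in the control and 4664 and 4792 bp in the ATRA libraries. The upstream region therefore went without either mark in the ATRA libraries, whereas the promoter region still had H3K4me3 in both.

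ZBTB16 encodes the zinc finger repressor PLZF, first known from a fusion with the retinoic acid receptor alpha in leukemia. Of the 4 regions of both control libraries in this gene, 2 were lost. The longer covered an internal transcript start and was centered 122921 bp downstream of the gene's 5′ end (chr11:114049302-114056067, 6307 and 5605 bp), and the other lay further downstream in the gene body (chr11:114087078-114088974, 1850 and 1665 bp). The largest ZBTB16 region was the longest region just outside the rule in the whole set (chr11:113947630-113975788). It was under peaks over 23436 and 28159 bp in the control libraries and over 0 and 1321 bp in the ATRA libraries. The remaining region was kept, with 2173 and 1291 bp in the control and 438 and 379 bp in the ATRA libraries. In this kept region, where the rule did not set the ATRA values to 0, both ATRA values were below both control values. It was named after its values were seen, and the share of all kept regions with such an order was not counted.

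With these 2 regions, a lost region over the start of the neighboring gene NNMT (nicotinamide N-methyltransferase, chr11:114127623-114131606, 2645 and 2715 bp) formed a cluster, and none of the 3 had H3K4me3. Clusters were chains of lost regions at most 50000 bp apart. There were 45 of them, holding 98 of the 614 lost regions (16.0%). Of the 45, 38 had 2 members, 6 had 3 and 1 had 4. The share of lost regions in clusters would be 60.2% without control replicate 1, with its many more lost regions, and 46.8% without control replicate 2. Because the share in clusters rises with the number of regions in a class, the 62.7% of kept regions and 52.9% of gained regions are not comparable with it.

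The cluster of 4 lay on chromosome 11 and ran from the gene body of P2RX3, an ATP-gated ion channel, to PRG3 (chr11:57119088-57146276). Its members measured 2225 and 7026 bp, 1920 and 1442 bp, 2564 and 2259 bp, and 803 and 1810 bp in control replicates 1 and 2. No region between them was kept or had an ATRA peak, and none had H3K4me3. PRG3 and its neighbor PRG2 encode eosinophil granule proteins, PRG2 the major basic protein. The region over the PRG3 and PRG2 promoters (chr11:57147441-57160664) again fell just outside the rule, with 11254 and 13224 bp in the control and 0 and 3272 bp in the ATRA libraries. H3K4me3 over it covered 10657 and 9424 bp in the control and 4649 and 2967 bp in the ATRA libraries. How many of all regions separate in this way was not counted. The next region, nearest to PRG2 (chr11:57161530-57170483), was kept, with 7501 and 8522 bp in the control and 2183 and 6678 bp in the ATRA libraries. Its H3K4me3 was 4985 and 2233 bp in the control and 0 bp in both ATRA libraries.

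**Figure D4:**
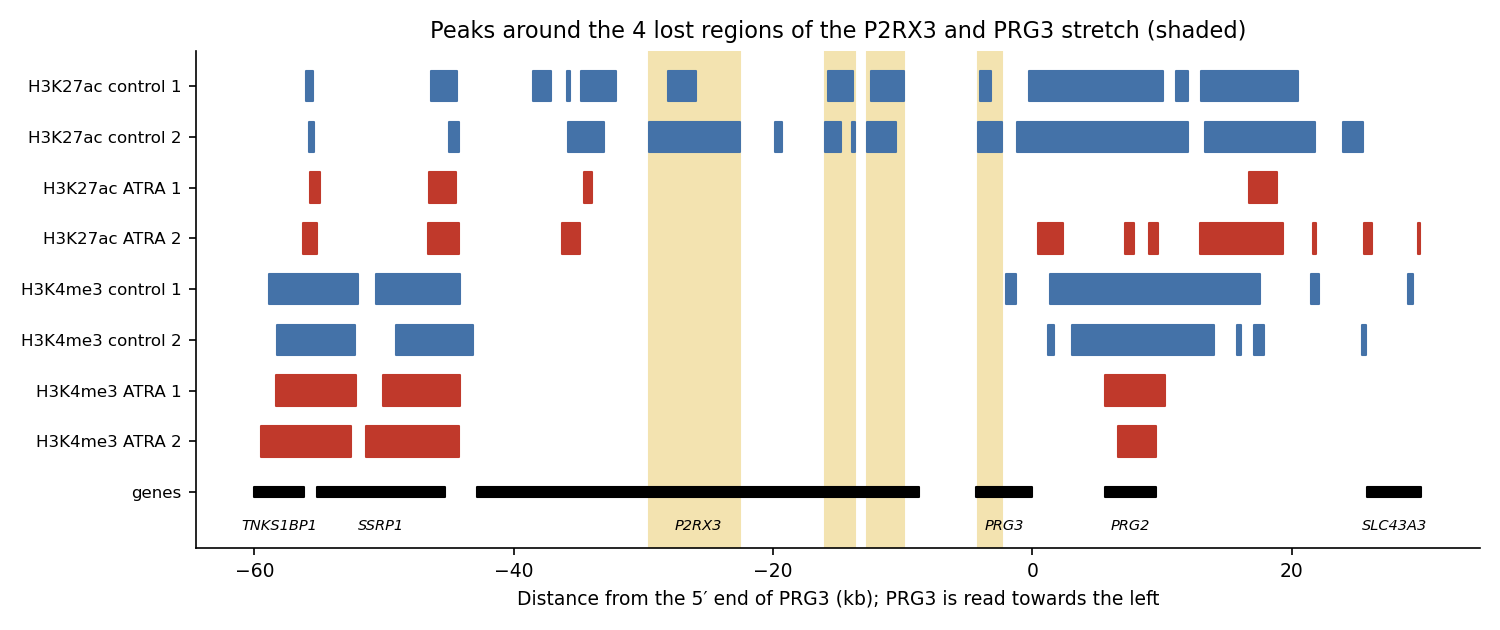
Peaks of the 8 libraries around the P2RX3, PRG3 and PRG2 genes, by distance in kb from the 5′ end of PRG3, with control peaks in blue, ATRA peaks in red, the 4 lost regions shaded and protein-coding genes in black. SSRP1 at the left keeps both marks in all libraries. The shaded stretches have control H3K27ac alone. Over the wide control H3K27ac peaks that span the PRG3 start and PRG2, ATRA replicate 1 has no peak and ATRA replicate 2 short ones. The next wide control H3K27ac peaks to the right of PRG2 overlap a peak of both ATRA libraries, so that region was kept.

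Of the other clusters named, those of 3 regions in CACNA1D (a calcium channel subunit, chr3:53389631-53491450), RALGPS1 (an exchange factor for Ral proteins, chr9:129890692-129940998) and SERINC5 (a membrane protein, chr5:79484706-79502376) lay inside gene bodies. The sixth was intergenic, upstream of SEPTIN5 (chr22:19629206-19670217). None of these 12 regions had H3K4me3. MAD1L1 (a spindle checkpoint protein), AFF2 and GAB2 also had 3 lost regions in their bodies, beside 1, 1 and 2 kept ones.

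Some genes of the eosinophil lineage had lost regions and others gained ones. Of the 5 mast cell, basophil and eosinophil genes on a list of 16 with a region of both control libraries at the promoter or in the body, 2 had a lost region (EPX and IL5RA); the share over all such protein-coding genes was 4.11% (380 of 9251). Of the 9 genes of this list with a region of both ATRA libraries so placed, 3 had a gained region (CCR3, the eotaxin receptor, among them), where the share over all such genes was 20.1% (2177 of 10827). With counts this small, and with members and lists chosen when earlier results were known, the list is a description. EPX encodes eosinophil peroxidase. Its lost region was centered 1893 bp upstream (chr17:56266595-56269794, 3190 and 3159 bp, with an ATRA peak 770 bp away), with H3K4me3 of 1950 and 684 bp in the control and 0 bp in both ATRA libraries. A second EPX region further upstream (chr17:56260489-56265824) was kept, with 2831 and 4980 bp in the control and 2927 and 4791 bp in the ATRA libraries. IL5RA, the receptor chain for interleukin-5, lost a region in its body (chr3:3121146-3125060, 1115 and 3758 bp) and kept 3 others, its promoter among them. The nearest of these 3 lay directly beside the lost region (chr3:3125296-3131157). At EPX and IL5RA the loss thus concerned a single region next to kept ones. Both lost regions lay less than 1000 bp from a kept region. Merging peaks up to 1000 bp apart would join each to that region, and neither gene would then count as having lost one.

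The counts of the other lists are read against the same 4.11% for lost and 20.1% for gained regions. Among 30 stem and progenitor transcription factors, 21 had a region of both control libraries at the promoter or in the body, and 3 of these had a lost region. Besides ZBTB16 these were ERG (chr21:39846111-39848388, 1348 and 2278 bp), its only such region, and RUNX1 (chr21:36296012-36298217, 2206 and 1644 bp), where 7 others were kept. In the lymphoid list the count was 2 of 7, with IGLL1 and BCL11B (423 and 615 bp). For cytokine and growth factor receptors it was 2 of 16, with IL1R1 (1028 and 2840 bp) and TGFBR2 (2676 and 1546 bp). For signaling adaptors and kinases it was 4 of 25, STAT3, STAT5A and GAB2 among them. STAT3 and STAT5A share 1 lost region, which covers the 3′ ends of both genes (chr17:40462617-40468050, 5005 and 5434 bp). H3K4me3 there was 3133 and 2303 bp in the control and 1663 and 1966 bp in the ATRA libraries. GAB2, an adaptor of cytokine receptors, had 4 lost regions, the largest upstream of its start (chr11:78129439-78137649, 3115 and 8211 bp, with an ATRA peak 357 bp away). In each of these lists more genes had a gained than a lost region. The gained counts, out of the genes with a region of both ATRA libraries, were 4 of 22 for stem and progenitor factors, 5 of 8 for lymphoid genes, 8 of 18 for receptors and 16 of 29 for signaling genes. RUNX1 and IL1R1 had both a lost and a gained region.

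In the remaining lists between 0 and 2 genes had a lost region, close to what the 4.11% over all genes gives in lists of this size. The count was 1 of 36 for cell cycle and DNA replication genes (CDK6), 1 of 21 for amino acid and one-carbon metabolism (SLC7A5), 2 of 27 for chromatin and DNA methylation regulators (TET1 among them) and 1 of 17 for adhesion and migration genes (ANGPT1). It was 0 of 10 for primary granule genes, 0 of 6 for secondary and tertiary granule genes, 0 of 23 for ribosome biogenesis, 0 of 9 for retinoid pathway and ATRA response genes, 0 of 7 for erythroid and megakaryocyte genes, 0 of 6 for monocyte and macrophage genes and 0 of 1 for HOX genes. BCR, known from earlier results, had 4 regions of both control libraries, all 4 of them kept, and it also had a gained region.

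At promoters, 144 protein-coding genes had a lost region, 1.70% of the 8452 genes with a region of both control libraries there. Without control replicate 1, control replicate 2, ATRA replicate 1 or ATRA replicate 2 the number of genes would be 1210, 374, 273 or 348. In 63 of the 144 another promoter region of the same gene was kept, and in 74 each promoter region of both control libraries was lost. Counting also the nearest gene of each lost region, 598 of 9894 genes were reached (6.04%). The 614 regions had 541 distinct nearest genes, 59 of them nearest to more than 1 lost region. The longest lost promoter regions not yet described were at internal starts of GNA15, a G protein alpha subunit (7389 and 2775 bp), CFAP251 (4114 and 5518 bp), ACVRL1, a receptor of the TGF-beta family (5616 and 3370 bp), SLX9 (5394 and 2812 bp) and AKAP9 (1926 and 5662 bp), and upstream of GPX3, the plasma glutathione peroxidase (4725 and 3709 bp). Of these 6, only the CFAP251 region had H3K4me3. The CFAP251 and ACVRL1 regions came within 2000 bp of an internal start but lay mostly past the 3′ end of the gene.

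H3K4me3, which the rule did not use, mostly stayed at the lost regions that had it in both control libraries. It stayed there less often than at kept regions. An H3K4me3 peak of any library overlapped 136 of the 614 lost regions (22.1%). The share was 20.2% for gained regions, 31.0% for all merged regions and 85.4% for kept regions, which are longer and mostly at promoters. At promoters it was 50.4% for lost, 43.0% for gained and 95.5% for kept regions. Of the 84 lost regions under H3K4me3 in both control libraries, 64 (76.2%) were also under it in both ATRA libraries, 9 in 1 of them and 11 (13.1%) in neither. Another 47 lost regions were under H3K4me3 in only 1 control library, and 37 of these were under it in neither ATRA library. For kept regions the corresponding count was 318 of 960. Without H3K4me3 control replicate 2, which had the fewest H3K4me3 peaks, the share that stayed was 52.3%. Among kept regions, 7159 of 7242 (98.9%) stayed and 34 (0.469%) went. Over all H3K4me3 regions of both control libraries, merged in the same way, 151 of 11724 were without a peak in either ATRA library (1.29%). The share that stayed was 53 of 61 (86.9%) at lost promoters, 7 of 15 in gene bodies and 4 of 8 between genes, and at kept promoters it was 99.6%. By length of the lost region the share fell from 95.0% up to 1 kb (19 of 20) to 56.2% over 4 kb (9 of 16). Length and position were mixed here, since 19 of these 20 but only 8 of these 16 were promoter regions. Within lost promoters the share was 19 of 19, 13 of 14, 15 of 20 and 6 of 8 from the shortest to the longest class. For kept regions it was between 97.9% and 100% in each length class.

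**Figure D5:**
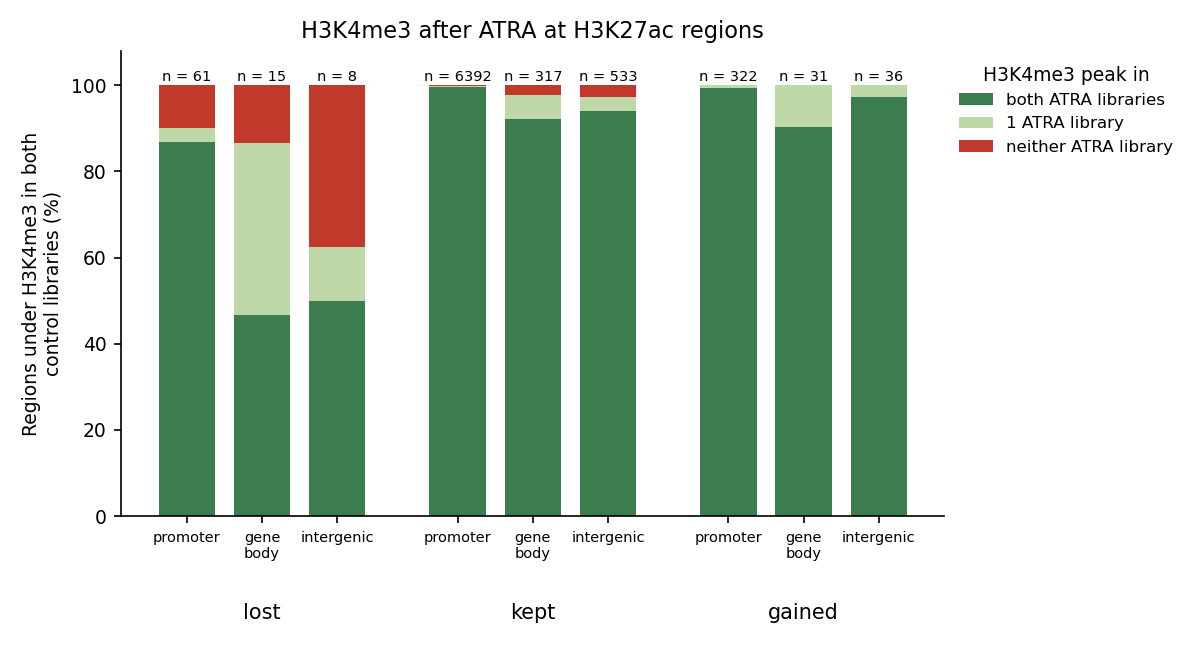
Regions under an H3K4me3 peak in both control libraries, split by whether a peak was found in both (dark green), 1 (light green) or neither (red) of the ATRA libraries, as percent of the n regions above each bar, for lost, kept and gained H3K27ac regions by position. H3K4me3 went from both ATRA libraries in 6 of 61 lost promoter regions and in 12 of 6392 kept ones.

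The 6 lost regions with the most control H3K4me3 and none in ATRA were those at CFAP251 (3703 and 1002 bp in the control libraries), SPNS3 (2236 and 2236 bp), GATA2, C1QA and EPX as given above, and MYLK, the myosin light chain kinase (2091 and 515 bp). At SPNS3, a member of the spinster family of transporters, the region covers the 5′ end of the gene (chr17:4336318-4338553, H3K27ac 1533 and 2142 bp), and a second lost region lay just upstream (chr17:4334289-4335309, 404 and 644 bp). No region of both control libraries was kept at SPNS3, and the ATRA H3K27ac peak nearest to its promoter region lay 43284 bp away. SPNS3 was thus without a peak of either mark in the ATRA libraries at its 5′ end. Its control H3K27ac peaks there were weak, with a strongest −log10 q of 1.05 and 1.02 in control replicates 1 and 2. The medians over all lost regions were 2.01 and 1.51. Low values in 1 or both control replicates were also found at other named regions. They were 1.04 and 1.85 at the longer lost ZBTB16 region and 5.47 and 0.984 at C1QA. The largest GAB2 region had 1.41 and 0.905, and GPX3 had 1.38 and 0.687. The GATA2 upstream region (3.20 and 2.65) and the IGLL1 promoter region (4.26 and 21.4) were above both medians.

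The opposite pattern, lost H3K27ac with H3K4me3 in all 4 libraries, was seen at CHAC1, NEUROD2, HES1, BHLHE22 and AFF2, among others. At CHAC1, a glutathione-degrading enzyme of the stress response, H3K27ac was 3051 and 4505 bp in the control libraries (chr15:41243103-41247607), and H3K4me3 was 4356 and 4286 bp in the control and 2822 and 2698 bp in the ATRA libraries. At HES1, a repressor downstream of Notch, the lost region lay 1774 bp upstream (chr3:193850747-193853579, 2367 and 1915 bp). H3K4me3 there was 2778 and 2406 bp in the control and 2833 and 2833 bp in the ATRA libraries. H3K4me3 was thus shorter in the ATRA libraries at CHAC1 and not at HES1. The control H3K27ac peaks at CHAC1 were weak too, with a strongest −log10 q of 1.02 and 0.909 in control replicates 1 and 2. The region nearest to TSN fell just outside the rule (chr2:122940508-122955162, 11108 and 14655 bp against 1240 and 0 bp).

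Measured as the percent of the length of all lost regions under an H3K4me3 peak, the control libraries had 11.0% and 6.99% and the ATRA libraries 6.02% and 6.04%. The means were 9.01% ± 2.86 (SD, n = 2) and 6.03% ± 0.0153 (SD, n = 2), a difference of −2.98 percentage points. Both ATRA values were below both control values, but control replicate 2 lay close to them and control replicate 1 stood apart. The two-sided exact permutation test over the 4 libraries gave p = 0.333, which is the smallest p that 2 libraries against 2 allow, so the difference cannot pass a threshold of 0.05. Without control replicate 1 the difference was −0.962 points, and without control replicate 2 it was −5.00 points. At lost promoters the values were 33.5% and 25.6% in the control and 21.9% and 22.0% in the ATRA libraries (difference −7.62, exact p = 0.333). Over kept regions, H3K4me3 covered 47.2% and 39.9% in the control and 47.4% and 45.0% in the ATRA libraries (difference 2.62, exact p = 0.667), where the groups overlapped. Control replicate 1 was the only library with an H3K4me3 peak at 36 of the lost regions, against 1 for control replicate 2, 1 for ATRA replicate 1 and 2 for ATRA replicate 2.

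The DNA of lost regions was compared with that of other regions in the central 300 bp, outside promoters, where base composition was similar (median GC content 45.7% for lost, 46.7% for kept, 46.3% for gained and 43.7% for all merged regions). The GATA letters AGATAA, on either strand, were present in 22.0% of lost, 17.1% of kept, 16.2% of gained and 19.1% of all merged regions. The RUNX letters TGTGGT were present in 26.0%, 21.8%, 22.1% and 21.2%, and the C/EBP letters TTGCNNAA in 18.0%, 15.1%, 15.0% and 15.8%. The AP-1 letters TGANTCA were found in 11.4%, 9.45%, 10.3% and 9.80%, and the PU.1 letters GAGGAAGT in 2.96%, 3.79%, 3.79% and 2.94%. In these windows the first 4 motifs were slightly more frequent in lost regions than in the other classes, and the PU.1 letters less frequent than in kept and gained regions. Over whole regions outside promoters the order against kept regions turned, with GATA letters in 74.6% of lost and 90.4% of the longer kept regions. The spaced pair of retinoic acid receptor sites was found in no central window of a lost region, and the CTCF letters in 0.634% of those outside promoters. Matches of different motifs may overlap, each was counted, and these shares were not tested, since regions are not replicates.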

How the data were processed

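ChIP-seq for H3K27ac and H3K4me3 was analyzed in 8 HL-60 libraries, 2 for each mark and treatment. Per the labels and the methods, the authors trimmed adapters with cutadapt. They mapped the reads with Bowtie, on hg19, and ran MACS2 in its broad mode on every library. The positions deposited by the authors were used. The deposited −log10 q served as a filter and as a description; the fold and −log10 p columns, which hold values such measures cannot take, were not used.

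Peaks of the 4 H3K27ac libraries on chromosomes 1 to 22 and X were merged; 2 mitochondrial peaks were left out. The lost regions were counted again with bedtools 2.31.1 and the region code was tested on simulated data. Genes came from GENCODE release 44 mapped to GRCh37, and 0 regions ran past a chromosome end. Positions are 1-based. With peaks alone, depth and counting error are unknown. The only test was a two-sided exact permutation over the 4 H3K4me3 libraries. Members and gene lists were chosen with earlier results of these data known. Regions were named by rank: the 12 longest, the 12 longest at promoters, the 6 largest clusters and the 8 genes with the most lost regions. Also named were genes of the lists, the 6 regions at either end for H3K4me3 and the 4 longest just outside the rule. GATA2, ZBTB16, SPNS3 and BCR were named as well. The GATA2 promoter, the PRG2 H3K4me3 values and kept regions of EPX, IL5RA, PRG2 and ZBTB16 were added after their values were seen. A few of the items so named are left out of the text. Python 3.11.15, numpy 2.4.6, pandas 2.3.3 and scipy 1.17.1 were used. Alternatives changed the q threshold, the merging, the overlap, the promoter window, the TSS set, the cluster distance and the libraries.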

Additional observations from a re-analysis of the deposited data

How the results depend on the processing

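Over 120 comparisons of a result with an alternative, 66 stayed close to the reported value, that is within 1.5 times for a count, within the 95% interval for a share or a median (exact binomial, counting error only), or on the same side for the H3K4me3 difference, and 54 moved. Only the H3K4me3 difference was checked for a reversal. In each comparison it kept its sign, although replicate numbers were averaged where regions were called within them. The order of lost and kept regions for GATA letters turned over whole regions. With control peaks of −log10 q of at least 5, 21 regions were lost, of which 9.52% were in clusters and 100% of those under H3K4me3 kept it, and 6 genes had a lost promoter region. With at least 50% of the region under a peak in each control library, 284 regions were lost, with 7.39% in clusters, 65% that kept H3K4me3 and 73 genes. Merging peaks up to 1000 bp apart put 11.9% in clusters. Leaving out each H3K27ac library in turn gave between 890 and 8584 lost regions, promoter shares from 14.4% to 29.7%, gene-body shares from 35.2% to 43.3%, intergenic shares from 34.7% to 44.6%, median TSS distances from 11294 to 18612 bp, 21.3% to 60.2% in clusters and 273 to 1210 genes. H3K4me3 was kept at 85.3% to 90.8% of regions when an H3K27ac library was left out and at 52.3% to 82.1% when an H3K4me3 library was, and its covered length differed by between −5.00 and −0.846 points. In the replicate block, where regions were called within each replicate number and averaged, 5963 regions were lost (2499 in number 1 and 9427 in number 2, where the H3K4me3 difference over their own lost regions was −5.26 and 0.525 points, so that its sign turned in number 2), with 54.8% in clusters, 90.9% that kept H3K4me3 and 1070 genes. The deviations of same-numbered libraries correlated with Pearson's r of 0.556 for H3K27ac and 0.223 for H3K4me3 over 75829 bins of 40 kb, which do not count as replicates. Promoter shares were 18.9% and 30.8% with windows of 1000 and 5000 bp, 34.9% with all annotated genes and, in an alternative added after seeing the data, 9.94% with the 5′ end of each gene alone; the gene-body share was 33.7% with 5000 bp and the intergenic share 21.3% with all genes. The numbers of genes were then 246 with all genes and 63 with 5′ ends, and the median distances 7040 and 41192 bp. Chaining at 20000 and 100000 bp put 11.9% and 21.2% in clusters. Over whole regions in place of the central 300 bp, GATA letters were in 71.2%, PU.1 letters in 16.8%, RUNX letters in 76.2%, C/EBP letters in 64.2%, AP-1 letters in 49.5% and CTCF letters in 4.40% of lost regions. Peak positions alone, with unknown depth and 2 libraries per group, limit all of these values.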
